A study of Mus musculus with 3 samples.

Results

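The 9 genes described here carry lipids between cells or handle them at the cell surface. They were chosen by name from the 32285 genes of the count matrices, not by a cut on their values, but with earlier results of these data known. They are the apolipoproteins Apoe, Clu and Apod, the lipid exporters Abca1 and Abca8a, the lipase Lpl, the transfer protein Pltp, and the receptors Lrp1 and Scarb1. All 9 were found by symbol in each library. They were followed through Müller glia, endothelial cells, mural cells (pericytes and smooth muscle), rods, cones and bipolar cells at each age. The retinas came from C57BL/6JRj mice with no treatment or engineered allele named, and cells carrying CD31, an endothelial surface protein, had been enriched with magnetic beads. The ages were 3 months for the young library, 12 months for the adult library and 23 months for the old library. Each age had a pair of mice, whose retinas went into 1 pooled library, so a difference between ages cannot be told apart from a difference between animals or preparations, and no test of age was possible. Every interval given below is a 95% interval for counting error alone.

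Lipids do not dissolve in water, so cells of the central nervous system exchange cholesterol and phospholipid on particles built around apolipoproteins. In the retina these particles are known to come largely from Müller glia, the radial glia that span the tissue. ABC transporters load the particles, lipases and transfer proteins reshape them, and lipoprotein receptors and scavenger receptors take their lipid into cells. Cells short of sterol are known to switch on their own sterol synthesis.

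Once barcodes had been filtered and called doublets removed, 1706 young, 1957 adult and 1697 old cells remained, with a median of 6355.5, 5964 and 6296 UMIs, the tagged molecules counted per cell. At most 3 cell barcodes were shared by any pair of libraries. Cells were clustered without the 9 genes and without the other lipid genes listed below, and classes were named from 8 markers each for Müller glia, endothelium, pericytes, rods, cones and bipolar cells and 6 for smooth muscle. The names are X-like calls rebuilt from markers, so each class is Müller glia-like, endothelial-like and so on, and the short names are used from here. Müller glia numbered 181 young, 215 adult and 209 old cells, endothelial cells 439, 431 and 407, and mural cells 207, 168 and 140. There were 166, 322 and 235 rods, 70, 102 and 71 cones, and 195, 200 and 163 bipolar cells. Droplets with the markers of both endothelial and mural cells, 312, 250 and 225 in turn, were left out of both classes. The cells of other types differed most between libraries: the old library gave 53 cells of the retinal pigment epithelium against 1 young and 7 adult, the adult library gave 37 lens cells against 1 young, and B cells numbered 11, 77 and 57. Müller glia had a median of 9166, 9486 and 6668 UMIs per cell, endothelial cells 5643, 5994 and 7486, mural cells 4310, 4833 and 5326, and rods, the shallowest class, 2287, 2425.5 and 2161. UMIs of a gene were summed over the cells of a class and library and given as CPM, the share of that class total on the usual scale of the unit. The libraries were made from the 3′ ends of transcripts and the counts are not scaled for gene length, so levels are compared for a gene between classes and not between genes.

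Apolipoprotein E, the main lipid carrier of the nervous system, was highest in Müller glia among the 6 classes in each library. Its level there was 13486 CPM in the young library (95% interval 13310 to 13664), 14580.5 CPM in the adult (14412 to 14750) and 15046 CPM in the old (14854 to 15240). A UMI of Apoe was found in 98.3, 97.2 and 97.1% of Müller glia, with a median of 122, 135 and 101 UMIs per cell, and in 21.7, 23.9 and 25.5% of rods. Endothelial cells followed with 412, 467 and 486 CPM, and the Müller glia level was 31.0 to 32.7 times theirs in the 3 libraries. Rods came next with 246, 213 and 440 CPM. Mural cells held 44.8, 86.1 and 76.8 CPM, cones 46.8, 155 and 38.9 CPM, and bipolar cells 17.4, 11.1 and 57.2 CPM, so that the order among these last classes differed in the old library. Apoe lies at chr7:19696109-19699188 on the minus strand of GRCm38 (GENCODE M21).

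Clusterin (Clu), an apolipoprotein and secreted chaperone at chr14:65968483-65981547 on the plus strand, had the same leading class among the 6. Müller glia of the young, adult and old library held 3498, 3642 and 3922 CPM. Cones were next with 132, 222 and 299 CPM, and the Müller glia level was 13.1 to 26.5 times the cone level. Rods followed with 50.03, 44.1 and 102 CPM, endothelial cells with 33.6, 49.2 and 94.98 CPM, bipolar cells with 26.1, 55.5 and 43.2 CPM and mural cells with 7.97, 39.0 and 10.5 CPM. The intervals of rods and endothelial cells overlapped in each library, so their order was not resolved. Bipolar cells lay above both in the adult library, with overlapping intervals, and below both in the young and the old one.

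Apolipoprotein D (Apod), a small lipocalin that binds lipids such as arachidonic acid and lies at chr16:31296192-31314808 on the minus strand, had an endothelial pattern instead. Endothelial cells held 88.9, 69.9 and 109.6 CPM, with the libraries named in order of age here and below, and mural cells 10.96, 6.89 and 6.98 CPM. Müller glia held 2.42, 3.57 and 2.58 CPM. No UMI of Apod was counted in the cones of any library. Apod was found in 26.9, 26.2 and 31.0% of endothelial cells, against at most 0.851% of rods, and in 11.8, 10.2 and 12.9% once each cell was thinned to 2000 UMIs. Its UMIs were uneven: the single highest endothelial cell held 40, 10 and 50 of the 286, 236 and 398 UMIs.

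Of the exporters, Abca8a, an ABC transporter of the A subfamily linked to cholesterol efflux (chr11:110025634-110095978, minus strand), followed Apoe and Clu. Müller glia held 779, 727 and 815 CPM, and 92.3, 90.7 and 89.5% of them had a UMI, against 3.01, 2.17 and 5.96% of rods. After thinning the shares were 73.7, 68.8 and 77.2% of Müller glia and 0.952, 1.38 and 6.34% of rods. By the median over libraries the next class was mural, with 22.9, 28.7 and 16.3 CPM, and the Müller glia level was 25.3 to 50.02 times that. Endothelial cells held 3.11, 2.67 and 1.38 CPM. In mural cells Abca8a was at 2.94, 3.95 and 1.999% of the Müller glia level, where the markers of Müller glia summed to 0.461, 0.620 and 0.760% of theirs.

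Abca1, the transporter that loads cholesterol and phospholipid onto lipid-poor apolipoproteins (chr4:53030787-53159895, minus strand), was low in each class and had no leading one. Rods held 27.1, 32.1 and 23.1 CPM, bipolar cells 27.7, 25.9 and 31.0 CPM and Müller glia 21.1, 20.9 and 29.0 CPM. Endothelial cells held 14.9, 9.78 and 11.6 CPM, cones 0, 16.4 and 8.19 CPM and mural cells 0, 9.19 and 1.16 CPM. The 3 highest classes did not differ beyond their counting error. Among bipolar cells the cluster led by Trpm1 and Prkca held 98.1, 56.4 and 89.7 CPM from 12, 12 and 10 cells, and the one led by Pcp2 and Prkca 34.5, 34.5 and 35.2 CPM. The other 4 bipolar clusters held 0 to 4 UMIs per library, too few to set an order among the clusters.

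Phospholipid transfer protein (Pltp), which moves phospholipid between lipoproteins (chr2:164839518-164857711, minus strand), was highest in endothelial cells among the 6 classes in each library. Endothelial cells held 3104 CPM at 3 months (3044 to 3166), 3330.1 CPM at 12 months (3269 to 3392) and 3591 CPM at 23 months (3530 to 3653). A UMI was found in 99.3, 99.5 and 99.3% of them, with a median of 16, 18 and 24 per cell, and in 2.41, 1.24 and 4.68% of rods. Mural cells held 112, 109.1 and 183 CPM, bipolar cells 44.3, 41.5 and 29.1 CPM and Müller glia 11.5, 8.67 and 13.5 CPM. The endothelial level was 19.6 to 30.5 times the mural level. Lipoprotein lipase (Lpl, chr8:68880491-68907448, plus strand), which hydrolyses triglyceride of lipoproteins at the vessel wall, was counted, among the 6 classes, almost only in mural cells, at 26.9, 49.4 and 48.9 CPM from 27, 43 and 42 UMIs. Each of the other 5 classes held 0 to 3 UMIs of it per library, so a low level in them was not detectable at this depth. In rods, where no Lpl was counted, 3 UMIs would make 6.25, 3.01 and 4.94 CPM.

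Of the receptors, Lrp1, a large endocytic receptor that binds Apoe among many ligands (chr10:127538161-127621148, minus strand), was highest among the 6 classes in mural cells, at 380.4 CPM in young cells (343 to 421), 364 CPM in adult cells (325 to 406) and 300.3 CPM in old cells (265 to 339). Müller glia held 139.5, 158 and 164 CPM, and the mural level was 1.83 to 2.73 times that. Bipolar cells held 33.2, 33.3 and 36.6 CPM and endothelial cells 13.1, 14.5 and 6.06 CPM. Rods held at most 3 UMIs per library and cones none. A UMI of Lrp1 was found in 76.8, 74.4 and 73.6% of mural cells, against at most 0.932% of rods, and in 53.4, 54.5 and 42.3% after thinning. The endothelial Lrp1 level was 3.43, 3.99 and 2.02% of the mural one, under the 5.75, 5.75 and 3.76% to which mural markers summed in endothelial cells, and the part of mural RNA in it was not tested.

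Scarb1, the receptor that takes cholesteryl ester from high-density lipoprotein (chr5:125277087-125341094, minus strand), was spread over several classes. Endothelial cells held 116, 109.7 and 92.2 CPM, cones 89.5, 88.0 and 86.0 CPM, Müller glia 77.3, 51.5 and 68.4 CPM and rods 77.1, 45.2 and 74.1 CPM. Mural cells held 28.9, 24.1 and 23.3 CPM and bipolar cells 21.3, 24.4 and 20.6 CPM. The endothelial level was 1.07 to 1.30 times the cone level, and the intervals of both classes overlapped in each library.

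**Figure D1:**
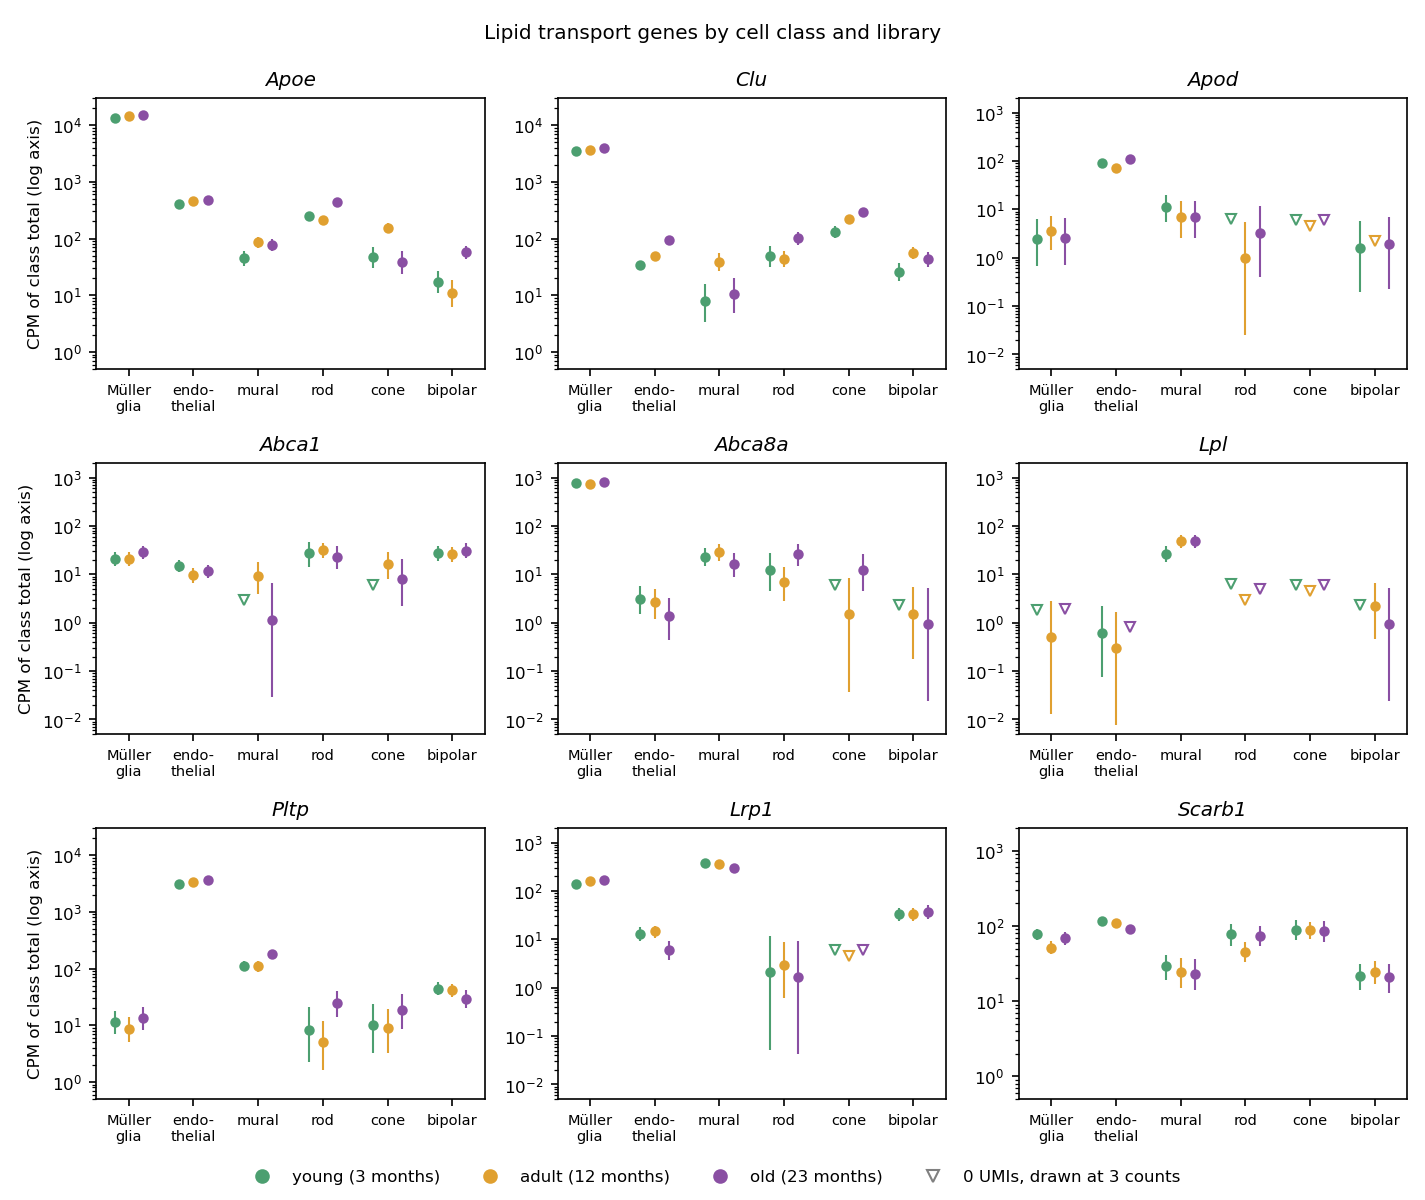
Level of each of the 9 genes (CPM of the class total, log axis) in 6 cell classes, with 1 point per library and 95% counting intervals; open triangles mark 0 UMIs, drawn at the level 3 counts would give. Apoe, Clu and Abca8a stand highest in Müller glia, Pltp and Apod in endothelial cells, Lrp1 and Lpl in mural cells, while Abca1 and Scarb1 are spread over several classes.

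The sequences before the starts of 4 members are shown because these genes form a pair that peaks in Müller glia and a pair that peaks in endothelial cells. They are the bases just upstream of the gene, from RefSeq on GRCm38.p6, printed 5′ to 3′ on the gene's own strand, with bases inside the transcript left out. Capitals mark a match on either strand to TATAAA, the CCAAT box, the GC box GGGCGG, the sterol regulatory element TCACNCCAC or the nuclear receptor motif AGGTCA. Of 32851 RefSeq promoters, 12.4, 33.8, 32.7, 1.05 and 14% hold these motifs in turn. The Müller glia pair is Apoe at chr7:19699189-19699438 and Abca8a at chr11:110095979-110096187, both on the minus strand.
Apoe: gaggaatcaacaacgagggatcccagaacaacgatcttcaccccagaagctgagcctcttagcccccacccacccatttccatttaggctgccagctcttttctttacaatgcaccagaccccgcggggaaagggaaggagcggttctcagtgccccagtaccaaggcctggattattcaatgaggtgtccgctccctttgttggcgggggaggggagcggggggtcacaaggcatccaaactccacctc
Abca8a: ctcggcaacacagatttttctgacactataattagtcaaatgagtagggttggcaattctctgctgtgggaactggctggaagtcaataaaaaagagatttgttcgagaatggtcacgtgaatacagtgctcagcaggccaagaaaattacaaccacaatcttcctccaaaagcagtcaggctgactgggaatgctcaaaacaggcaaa
The endothelial pair is Pltp at chr2:164857712-164857958 and Apod at chr16:31314809-31315058, also on the minus strand.
Pltp: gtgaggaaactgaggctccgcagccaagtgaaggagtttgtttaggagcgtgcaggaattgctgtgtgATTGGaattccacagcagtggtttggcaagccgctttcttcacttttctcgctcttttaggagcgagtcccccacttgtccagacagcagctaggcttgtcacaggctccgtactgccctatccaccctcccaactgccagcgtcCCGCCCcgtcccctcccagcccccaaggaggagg
Apod: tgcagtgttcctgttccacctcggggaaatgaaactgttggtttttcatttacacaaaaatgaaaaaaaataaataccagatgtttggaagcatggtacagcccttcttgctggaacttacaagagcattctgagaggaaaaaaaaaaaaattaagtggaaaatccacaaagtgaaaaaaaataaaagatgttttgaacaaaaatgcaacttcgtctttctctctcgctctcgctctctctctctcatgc
None of the 5 motifs was found in the printed Apoe, Abca8a or Apod stretch, and the Pltp stretch held a CCAAT box and a GC box, both on the opposite strand. G and C made up 57.2% of the Apoe and 57.9% of the Pltp stretch, but 43.1% of the Abca8a and 36.4% of the Apod stretch, so base composition differed within both pairs. Apoe had 3 entries, of which the outermost is printed, and one that starts inside the gene held TATAAA on both strands, 96 and 100 bases before its start. RefSeq entries were matched for 6 of the 9 members.

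The genes whose levels ran most closely with each member were found by Pearson's r of log-scale CPM over 18 points, 6 classes in 3 libraries, among 10390 genes. The points share libraries and class totals, so r is a description. Apoe ran with Glul (r = 0.969), the glutamine synthetase of Müller glia, and with Car14 (0.956), a carbonic anhydrase, both of which had served as markers of the class. Abca8a ran with Begain (0.986), Arhgef19 (0.981) and Sox8 (0.980), a transcription factor gene. Clu ran with Sfxn5 (0.958) and Cntf (0.957), a neurotrophic factor gene. Pltp ran with Cldn5 (0.991), a tight junction gene of endothelium, and the transporter gene Slco1a4 (0.991), and Apod with Mecom and Lef1 (both 0.988), which encode transcription factors. Lrp1 ran with Nr2f1 (0.989), a nuclear receptor gene, and Scarb1 with Jam2 (0.945) and Slc16a1 (0.917), a monocarboxylate transporter gene. For Abca1 the closest gene, the coactivator gene Ncoa1, reached 0.850.

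Against the young library, no member that peaked in Müller glia or endothelial cells, Apoe, Clu and Abca8a or Pltp and Apod, was past 1.5-fold in its own leading class. In Müller glia the old-to-young ratio of CPM was 1.12 for Apoe (1.10 to 1.14), 1.12 for Clu (1.08 to 1.16), 1.05 for Abca8a (0.967 to 1.13), 1.18 for Lrp1 (0.983 to 1.41), 1.37 for Abca1 (0.863 to 2.20) and 0.884 for Scarb1 (0.677 to 1.15). None of these 6 members with at least 50 UMIs was past 1.5-fold either way, where 8.54% of all 7363 genes with at least 50 UMIs were. Abca1 was past it in 3 other settings, at 1.53 without cells that held markers of another class, 1.70 as a mean over cells and 1.94 with classes from each cell's own markers. With own markers, and without doublet removal, 1 member that had fewer than 50 UMIs here was also past it. From young to adult 1 of 6 was past it, against 7.91% of all genes: Scarb1, at 0.666 (0.508 to 0.871), whose old level lay between the young and the adult one and whose adult-to-young ratio was 0.703 after thinning. Lens markers, 5 genes summed, were at 1.21, 292 and 0.645 CPM in young, adult and old Müller glia. The part of lens RNA in the adult levels was not tested. The median log2 ratio of the 6 members from young to old was 0.16, beside 0.03 for all genes.

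In endothelial cells 2 of 7 members with at least 50 UMIs were past 1.5-fold from young to old, where 8.11% of all genes were. Clu was 2.83 times as high in the old library (2.27 to 3.55), from 108, 166 and 345 UMIs. Lrp1 was at 0.464 (0.264 to 0.795), from 42, 49 and 22 UMIs, and at 0.826 when the mixed endothelial and mural droplets were counted as endothelial. Over the other settings Lrp1 did not count as past the limit in 4 of 11, that one included, and Clu counted in each of 10. Pltp was at 1.16 (1.13 to 1.19), Apoe at 1.18 (1.10 to 1.27), Apod at 1.23 (1.06 to 1.44), Abca1 at 0.775 (0.4999 to 1.20) and Scarb1 at 0.796 (0.684 to 0.925). With the level in rods subtracted from each library the Apoe ratio was 0.277, the opposite direction. Pltp was higher at each later age and Scarb1 lower, both by less than 1.5-fold, while Apod was lowest in the adult library. From adult to old 3 of 7 members were past the limit, against 6.14% of all genes: Apod at 1.57 (1.33 to 1.85), Clu at 1.93 (1.60 to 2.34) and Lrp1 at 0.417 (0.240 to 0.703). A single cell held 50 of the 398 old Apod UMIs, and another 10 of the 236 adult ones. The share of all genes from adult to old was computed in endothelial cells alone, and alternative settings were not run for this contrast. From young to adult 1 of 7 was past the limit, against 4.21% of all genes: Abca1, at 0.656 (0.408 to 1.04), an interval that includes 1.

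In mural cells 3 of 4 members were past 1.5-fold from young to old, all higher in the old library, where 12.6% of all genes were past it either way. Lpl was at 1.82 (1.10 to 3.07), Apoe at 1.71 (1.16 to 2.56) and Pltp at 1.64 (1.28 to 2.11). After thinning Pltp was at 1.59 and Apoe at 1.46, and Lpl, at 2.41, had under 50 UMIs. With classes from each cell's own markers none of the 3 was past it, with Pltp at 1.41, Apoe at 1.40 and Lpl at 1.34, and the 1 member that was had fewer than 50 UMIs here. Lrp1, the most counted member there, was at 0.789 (0.671 to 0.927). From young to adult 2 of 5 members were past the limit, against 8.72% of all genes: Apoe at 1.92 (1.31 to 2.85) and Lpl at 1.84 (1.11 to 3.09). The 5 highest mural cells held 44% of the Apoe UMIs in the adult library. Over 9 other settings this Apoe ratio ran from 1.23 to 2.04, and in 3 of them it did not count as past the limit. Lpl was at 49.4 CPM in the adult and 48.9 CPM in the old library. The adult-to-young ratio of Pltp was 0.978 (0.736 to 1.30). The Pltp ratio was 1.12 without cells that held markers of another class, and the level of Pltp in mural cells was 3.59, 3.28 and 5.09% of the endothelial level where endothelial markers summed to 4.63, 5.31 and 4.77% of theirs. Apoe in mural cells was at 0.332, 0.591 and 0.511% of the Müller glia level, where Müller glia markers summed to 0.461, 0.620 and 0.760% and their median was 0.0396, 0.177 and 0.2499%. It lay above 7, 7 and 6 of the 8 markers, and the part of Müller glia RNA in its ratio was not tested.

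In the neurons most of the members past the limit were the apolipoproteins that peaked in Müller glia, at low levels. In rods 2 of 3 members were past 1.5-fold from young to old, Apoe at 1.79 (1.43 to 2.24) and Clu at 2.04 (1.26 to 3.42), where 10.9% of all genes were past it. From young to adult 1 of 3 was past it, Scarb1 at 0.585 (0.370 to 0.930), against 11.3% of all genes, and its old-to-young ratio was 0.961. Without rods that held markers of another class the Apoe ratio was 1.15 and the Clu ratio 0.911, and after thinning the Clu ratio was 1.23. In cones Clu was past the limit, at 2.26 (1.68 to 3.08), as 1 of 2 members, where 10% of all genes were. After thinning its ratio was 3.40 from 43 UMIs, under the minimum of 50, so no member of cones then counted. From young to adult 2 of 3 members of cones were past it, Clu at 1.68 (1.25 to 2.29) and Apoe at 3.32 (2.10 to 5.46), against 8.19% of all genes. Apoe in cones came from few cells, since the 5 highest held 65.4% of its UMIs in the adult library.

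In bipolar cells 3 of 5 members were past 1.5-fold from young to old, where 8.53% of all genes were. Apoe was at 3.29 (1.99 to 5.63), Clu at 1.65 (1.04 to 2.67) and Pltp at 0.657 (0.409 to 1.04). After thinning no member counted as past the limit, and the Clu ratio was 1.05. The Apoe ratio was at least 2.01 in each of 8 other settings, but had under 50 UMIs in 2 of them. From young to adult 1 of 5 was past it, Clu at 2.13 (1.40 to 3.31), against 6.18% of all genes. The 61 UMIs of Apoe in old bipolar cells were uneven, with 62.3% of them in the 5 highest cells. The same was true of Pltp, where a single young cell held 25 of the 56 UMIs, and the Pltp ratio was 1.95 without cells that held markers of another class, 2.84 with classes taken from each cell's own markers and 1.70 without doublet removal. Abca1 at 1.12 and Lrp1 at 1.10 lay within counting error of 1. The median log2 ratio of the members with at least 50 UMIs, beside that of all such genes, was 0.21 and 0.02 in endothelial cells, 0.74 and 0.06 in mural cells, 0.84 and 0.02 in rods, 0.56 and 0.07 in cones and 0.16 and 0.02 in bipolar cells.

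**Figure D2:**
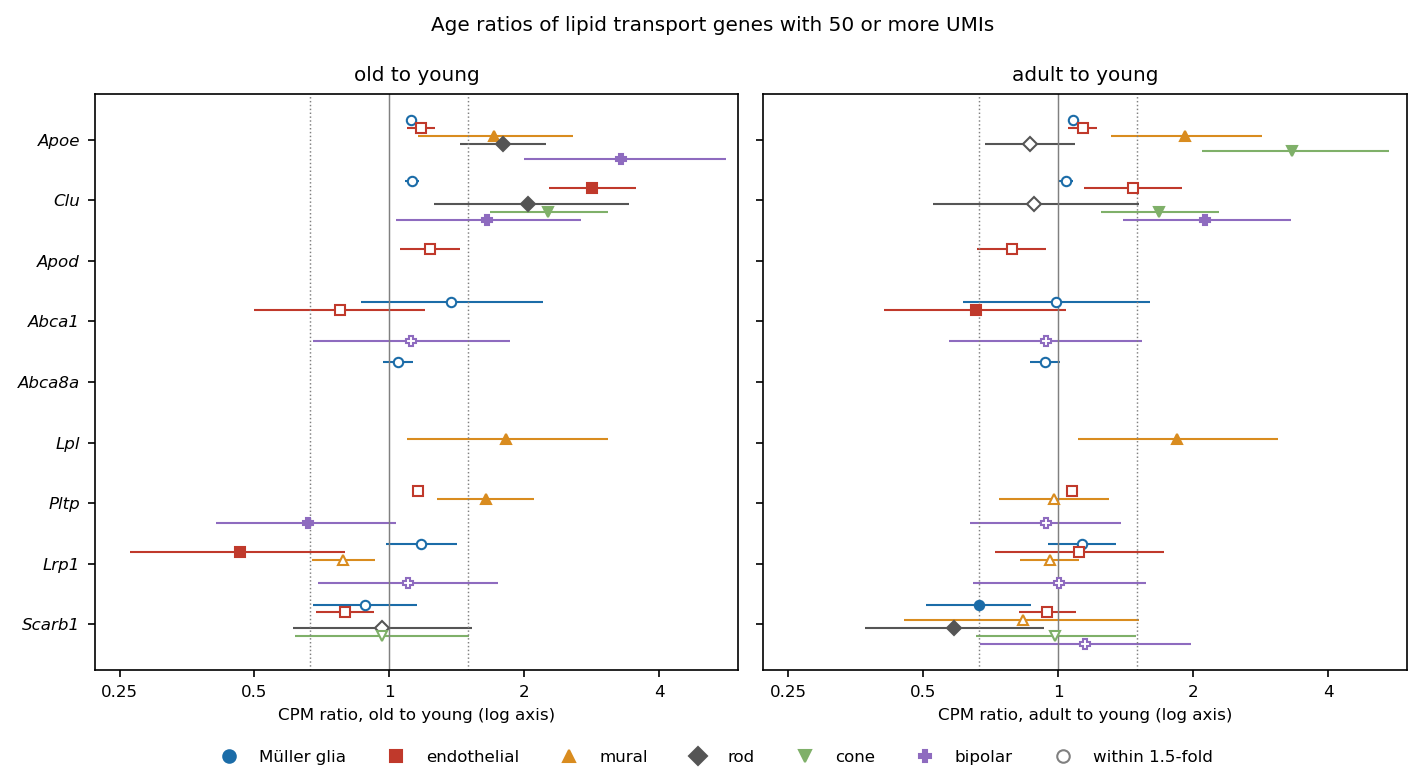
Ratio of CPM between libraries (log axis) for each member in each class where it had at least 50 UMIs over both libraries, old to young and adult to young, with 95% counting intervals; there was 1 library per age. From young to old the ratios of Müller glia lie between 0.884 and 1.37, and Clu lies above 1 in the 5 classes where it is shown.

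Most endothelial Clu UMIs came from a small cluster, which was itself a larger share of the old cells. The endothelial class held a larger cluster of 393 young, 373 adult and 326 old cells and a smaller cluster of 46, 58 and 81 cells, led by Gkn3, Vegfc, Sema3g and Fbln2. Gkn3 and Sema3g are known from arterial endothelium. Clu was at 202, 282 and 392.2 CPM in the smaller cluster and at 6.49, 8.02 and 11.3 CPM in the larger, and 90 of 108, 143 of 166 and 313 of 345 Clu UMIs came from the smaller cluster. Within the smaller cluster the old-to-young ratio was 1.94 (1.53 to 2.49), and within the larger it was 1.74 (0.947 to 3.29). The smaller cluster made up 10.5% of the young, 13.5% of the adult and 19.9% of the old endothelial cells, and with the UMI shares of both clusters held at those of the young library the ratio was 1.91 in place of 2.83.

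The other endothelial members were divided between these clusters in differing ways. Apoe was higher in the smaller cluster, at 816, 649.5 and 606 CPM, than in the larger, at 347, 435 and 452 CPM, with a ratio of 0.743 (0.648 to 0.854) in the smaller and 1.30 (1.20 to 1.42) in the larger cluster. Pltp was higher in the larger cluster, at 3319.8, 3517 and 4065 CPM against 1766, 2274 and 1907 CPM. Apod too was higher in the larger cluster, at 102, 78.8 and 133 CPM against 8.96, 19.7 and 27.6 CPM. Scarb1 was at 139, 79.0 and 77.7 CPM in the smaller cluster and at 112, 115 and 96.3 CPM in the larger, old-to-young ratios of 0.559 (0.387 to 0.808) and 0.858 (0.727 to 1.01).

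Mural cells also fell into a pair of clusters. The smaller one, with 38, 38 and 37 cells, was led by Tagln, Acta2 and Myh11, contractile genes of smooth muscle, and the larger by the pericyte genes Kcnj8 and Abcc9. Lpl was higher in the smooth muscle cluster, at 74.8, 109.5 and 108.6 CPM against 5.74, 12.9 and 6.001 CPM, with 23 of 27, 36 of 43 and 39 of 42 UMIs. There its old-to-young ratio was 1.45 (0.846 to 2.55), and with the cluster shares held at those of the young library the class ratio was 1.39 in place of 1.82. Lrp1 was higher in the pericyte cluster, at 469.5, 463 and 392.04 CPM against 179, 201 and 173 CPM. Pltp was likewise of the pericyte cluster, at 161, 153 and 304 CPM, with a ratio of 1.89 (1.47 to 2.44).

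Müller glia had a smaller cluster of 33, 34 and 48 cells with few UMIs, led by Utp14b and Adam23. In it Apoe was at 2154, 3460 and 3743 CPM against 14696, 15604 and 16524 CPM in the larger cluster. Abca8a was higher there, at 1334, 1373 and 1389 CPM against 719.9, 668 and 740.2 CPM, and so was Scarb1, at 244, 157 and 178 CPM against 59.5, 41.8 and 54.0 CPM. The Apoe ratio from young to old was 1.74 (1.52 to 1.98) in the smaller cluster and 1.12 in the larger.

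Free RNA can give any droplet some UMIs of abundant genes, so the levels of Müller glia members elsewhere were set beside those of Müller glia markers, the 8 genes Glul, Rlbp1, Slc1a3, Aqp4, Dkk3, Kcnj10, Crym and Car14. In rods Apoe was at 1.82, 1.46 and 2.92% of its Müller glia level, Clu at 1.43, 1.21 and 2.60% and Abca8a at 1.61, 0.966 and 3.23%. The median of the 8 markers in rods was 2.05, 1.30 and 2.97%, of the same size and highest in the same library. Apoe lay above 3, 5 and 4 of the 8 markers in rods, so its rod level did not stand apart from theirs. The part of Müller glia RNA in the rod levels and ratios was not tested.

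In endothelial cells Apoe lay above most of the markers. It was at 3.06, 3.21 and 3.23% of the Müller glia level, while the median of the 8 markers was 0.161, 0.132 and 0.297% and Abca8a was at 0.399, 0.367 and 0.169%. Glul was higher than Apoe in each library, at 7.13, 8.36 and 10.3%, and Car14 in the adult and the old one, at 4.84 and 4.45%, and with these included the markers summed to 3.805, 4.56 and 5.57%. Of the endothelial cells 70.2, 76.8 and 82.3% had a UMI of Apoe, and after thinning 45.3, 51.6 and 49.5%, when rods had 15.2, 15.7 and 25.4%. Clu in endothelial cells was at 0.959, 1.35 and 2.42%. Genes of the retinal pigment epithelium, 5 markers summed, were at 1.24, 2.07 and 25.6 CPM in endothelial cells and at 0, 5.02 and 23.1 CPM in rods, and that epithelium gave 1, 7 and 53 cells. The same 5 markers were at 27.2, 27.0 and 51.6 CPM in Müller glia and at 0, 2.30 and 5.82 CPM in mural cells. They were at 2.03, 1.49 and 4.10 CPM in cones and at 0, 3.70 and 7.50 CPM in bipolar cells. The part of RNA from that epithelium in the Apoe and Clu levels was not tested.

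Clu in cones lay above each of the 8 markers in each library, at 3.78, 6.102 and 7.62% of the Müller glia level where Apoe was at 0.347, 1.06 and 0.259% and the markers summed to 0.281, 0.829 and 0.361%. Clu was found in 55.7, 63.7 and 70.4% of cones, with a median of 1, 1 and 2 UMIs per cell, and in 13.04, 34.7 and 31.3% after thinning. Its 5 highest cones held 27.7, 16.8 and 20.5% of the UMIs. In bipolar cells Apoe was at 0.129, 0.0762 and 0.380% of the Müller glia level, under the 0.421, 0.474 and 0.539% of the summed markers. The median of the markers there was 0.156, 0.222 and 0.195%, and Apoe lay above 2, 2 and 6 of the 8. The part of Müller glia RNA in its ratio was not tested. Clu in bipolar cells was at 0.746, 1.52 and 1.10%, above each of the 8 markers.

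**Figure D3:**
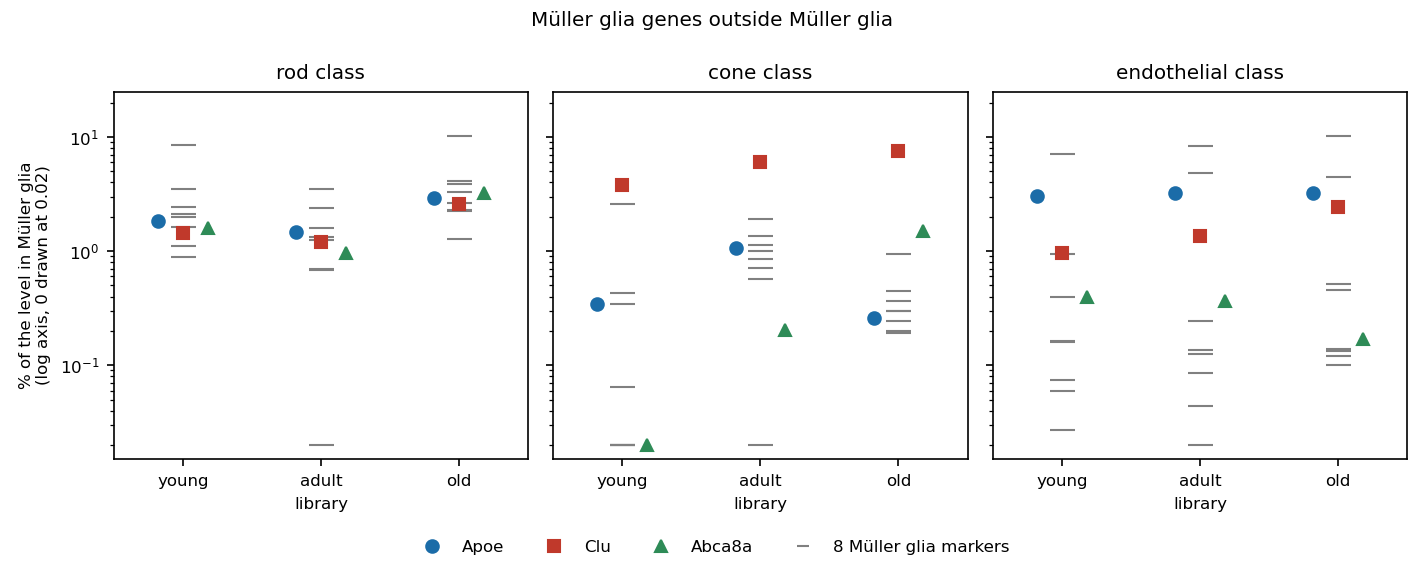
Level of Apoe, Clu, Abca8a and the 8 Müller glia markers outside Müller glia, as a percent of the Müller glia level (log axis, 0 drawn at 0.02), by class and library. In rods the members lie among the markers, in endothelial cells Apoe lies above most of them, and in cones Clu does.

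Beyond the 9 members, 88 other genes of lipid transport and sterol supply were followed in 8 lists: apolipoproteins, ABC transporters, receptors, lipases and transfer proteins, fatty acid uptake, intracellular cholesterol handling, sterol synthesis and its regulators. By the median over libraries, of the 62 with at least 200 UMIs, 20 were highest in Müller glia, 14 in mural cells, 12 in cones, 10 in endothelial cells, 4 in rods and 2 in bipolar cells. For 30 of the 62 the lowest level of the leading class lay above the highest level of any other class, 13 of them in Müller glia, 8 in endothelial cells, 5 in mural cells, 3 in cones and 1 in rods, and the genes named next are among these 30. Müller glia led for Acsl3, an acyl-CoA synthetase gene, at 1963 to 2098 CPM, for Abca8b, a paralog of Abca8a whose reads the counting may not divide with certainty, at 275 to 323 CPM, and for Apoc1, another apolipoprotein gene, at 45.9 to 96.4 CPM. Endothelial cells led for Lsr, a lipoprotein receptor gene, at 251 to 285 CPM, and for Mfsd2a, the lysophospholipid transporter of the blood-retina barrier, at 205 to 215 CPM. Rods led for Abca4, the retinoid lipid transporter of their outer segments, at 593 to 732 CPM.

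From young to old, 2 of these genes were higher and 4 lower past 1.5-fold of 47 with at least 50 UMIs in Müller glia, 3 and 2 of 48 in endothelial cells, 1 and 4 of 12 in rods, 2 and 0 of 14 in cones and 4 and 0 of 34 in bipolar cells. The shares of all genes past the limit either way were 8.54, 8.11, 10.9, 10 and 8.53% in these classes in turn. The median log2 ratio of the list genes was -0.03, -0.04, -0.37, 0.16 and 0.09. Among the lower genes in Müller glia was Lipa, the lysosomal acid lipase gene, at 0.488 (0.252 to 0.906). By list, the receptors had 1 higher and 2 lower of 10 in Müller glia and none past the limit of 8 in endothelial cells, and the ABC transporters had none of 5 in Müller glia and 1 higher of 5 in endothelial cells. In endothelial cells Acsl6, another acyl-CoA synthetase gene, was at 5.12 (2.499 to 11.8) from 9 and 52 UMIs, and Angptl4, an inhibitor of Lpl, at 0.577 (0.384 to 0.860).

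In mural cells 1 gene was higher and 11 were lower of 28 with at least 50 UMIs, where 12.6% of all genes were past the limit either way and 4.64% were lower. The lower genes were mostly those of sterol synthesis, 8 of 10 with at least 50 UMIs, whose median log2 ratio was -1.12 where that of all genes was 0.06. The 8 became 4 when each cell was thinned to 2000 UMIs and 5 without cells that held markers of another class. Msmo1, a sterol methyl oxidase gene, was at 177, 122 and 61.7 CPM (old to young 0.348, 0.251 to 0.475). Hmgcs1, which makes the precursor of mevalonate, was at 172, 123 and 76.8 CPM (0.446, 0.331 to 0.595). Sc5d, a sterol desaturase gene, was not past the limit, and Lss, with fewer than 50 UMIs, was higher in the old library, at 20.95 against 12.9 CPM.

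The 14 sterol synthesis genes together held 993, 737 and 477 CPM of the mural class, an old-to-young ratio of 0.481 (0.427 to 0.540) and an adult-to-young ratio of 0.743 (0.671 to 0.821). In the pericyte cluster the old-to-young ratio was 0.501 (0.439 to 0.569). In the smooth muscle cluster it was 0.746 (0.554 to 1.003), an interval that includes 1. The same sum was at 0.831 in Müller glia (0.757 to 0.911), 0.981 in endothelial cells, 0.973 in rods, 0.850 in cones and 1.13 in bipolar cells, and the difference between classes was not tested.

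The upstream stretch of Hmgcs1 is shown because it held a sterol regulatory element, the letters TCACCCCAC, whose first base lies 137 bases before the RefSeq start. The bases checked after this start were not found in a transcript of the gene, unlike those of the other genes printed, so its place is less certain. The stretch is at chr13:119690101-119690350 on the plus strand, with the same motifs in capitals, among them CCAAT boxes, GC boxes and AGGTCA on the opposite strand.
Hmgcs1: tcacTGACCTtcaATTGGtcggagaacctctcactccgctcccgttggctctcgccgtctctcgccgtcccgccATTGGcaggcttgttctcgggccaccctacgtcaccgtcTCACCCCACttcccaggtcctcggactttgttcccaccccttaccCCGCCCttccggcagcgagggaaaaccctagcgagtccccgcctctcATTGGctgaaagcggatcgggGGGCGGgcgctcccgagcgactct
RefSeq entries were matched for 4 of 9 mural genes looked up, and the stretches of Idi1, Cyp51 and Msmo1, which were shorter, held no such element. A match of letters does not show that a factor binds there.

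**Figure D4:**
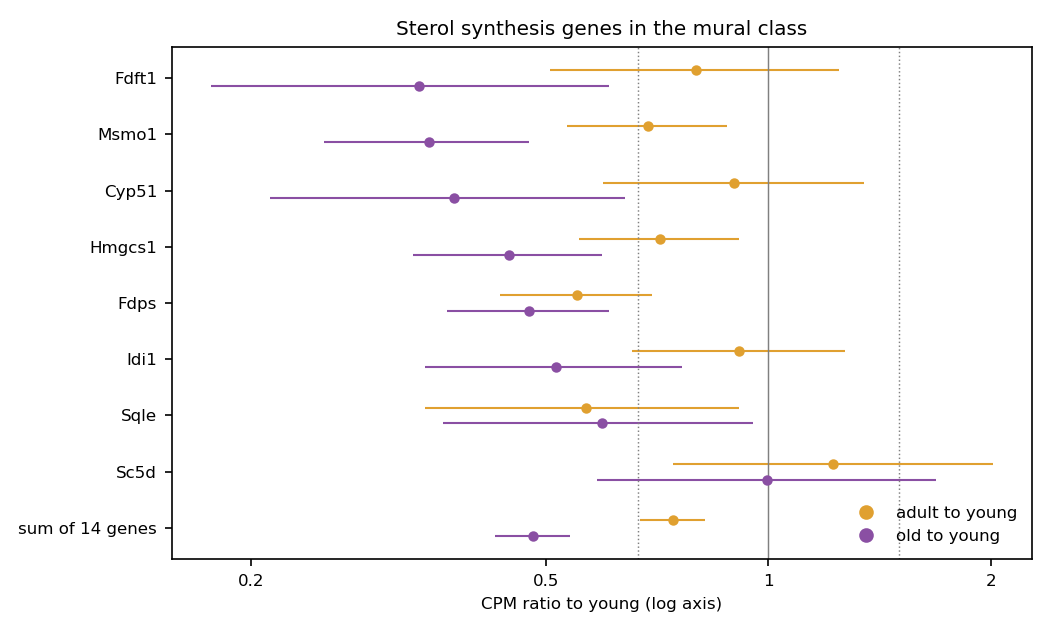
Ratio of mural CPM to the young library (log axis) for 8 of the 10 sterol synthesis genes with at least 50 UMIs over the young and old libraries and for the sum of 14, adult and old, with 95% counting intervals. Of the 8 genes drawn 7 are past the limit from young to old and Sc5d is not; the 2 genes not drawn, 1 past the limit and 1 not, are not reported here. Dotted lines mark 1.5-fold either way. The summed level of the 14 genes sits at 0.743 (adult) and 0.481 (old).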

How the data were processed

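CD31-enriched retinal cells of each age were profiled in 1 library, and the matrices held raw counts, as deposited: UMIs per gene and barcode, made per the labels with Cell Ranger 6.1.2 on mm10. The files held 2491, 3243 and 2751 barcodes with 16577026, 19977238 and 17021820 UMIs. Cells with 500 to 6000 genes and 1 to 20% mitochondrial UMIs were kept. Scrublet (scanpy 1.11.5) marked 7, 17 and 16 doublets (0.409, 0.861 and 0.934%), a weak call, since droplets with endothelial and mural markers remained. Cells were clustered in Seurat 5.3.0 (R 4.3.3) by canonical correlation anchors, with 2000 features that left out every listed lipid gene, 30 components and a resolution of 0.5, which gave 24 clusters. A name needed 3 markers detected in at least 20% of a cluster's cells at 25% or more of the highest cluster's level, and clusters holding 50% or more of the markers for each of 2 classes were called mixed. A cluster with endothelial markers but few UMIs (67, 71 and 85 cells) was left unnamed.

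Sums carry exact Poisson, ratios exact conditional and shares exact Clopper-Pearson 95% intervals (scipy 1.17.1), for counting error only. With 1 library per age no test or p-value was computed. A ratio counted as past the limit beyond 1.5-fold with at least 50 UMIs over both libraries. Like genes were ranked on log2(CPM + 10). The calculation of ratios was checked on simulated Poisson counts. These lack the unevenness of UMIs between cells, so the intervals were not checked for it. Genes outside the 9 were named if among the 6 at most per class with the largest old-to-young ratios past the limit whose interval excluded 1. Genes given for their level, genes not past the limit and comparisons by cluster were chosen after their values were seen. The 9 genes, the lists and the tests were chosen with earlier results of these data known. Alternatives were thinning, stricter limits, other scalings, other class rules, no doublet removal and the count minimum. Positions are from GENCODE M21. Some listed genes are counted in sums and counts but not reported by name here.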

Additional observations from a re-analysis of the deposited data

Results flagged for a closer look

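Each result here is a single value from 1 library per age and has no replicate check. Acsl6, an acyl-CoA synthetase gene, was at an old-to-young ratio of 5.12 in endothelial cells (2.499 to 11.8) and of 0.605 in rods (0.439 to 0.832), opposite directions with intervals on either side of 1. Msmo1, a sterol synthesis gene, was at 1.83 in bipolar cells (1.09 to 3.12) and 0.348 in mural cells (0.251 to 0.475). Neither difference between classes was tested.

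Some of the highest levels of the members lay in cells outside the 6 classes compared. Clu was at 7121 CPM in 37 lens cells of the adult library (6938 to 7307), where Müller glia of that library held 3642 CPM. It was at 7682 CPM in 53 cells of the retinal pigment epithelium in the old library (7346 to 8029), where Müller glia held 3922 CPM. Abca1 was at 132.5 CPM in those epithelial cells (91.8 to 185), where bipolar cells, the highest of the classes compared, held 31.0 CPM. The other libraries gave 1 and 0 lens cells and 1 and 7 epithelial cells, so the ages were not compared for them.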

How the results depend on the processing

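Over 78 ratios of members and mural sterol genes and 747 values under alternatives, 662 moved by less than counting error, 80 moved further, and 5 belonged to a ratio past 1.5-fold that changed direction. Over all 78 ratios 62 values lay on the other side of 1, but for only 4 of them did the interval of the reported ratio exclude 1. The cause was not tested. Among ratios past 1.5-fold the direction changed for Clu in rods from young to old without cells that held markers of another class (0.911), for Pltp in bipolar cells in the same setting (1.95), with classes from each cell's own markers (2.84) and without doublet removal (1.70), and for Scarb1 in Müller glia from young to adult when the rod level was subtracted (36.5), where almost nothing was left to compare. Among the others whose interval excluded 1 it changed for Apoe in Müller glia from young to adult with own markers (0.795 against 1.08) and for Apoe in endothelial cells from young to old with the rod level subtracted (0.277 against 1.18). Apoe in Müller glia from young to old was 1.07 thinned to 2000 UMIs, 1.14 without cells holding other markers, 1.09 with median-of-ratios size factors or own markers and 1.06 as a mean over cells. Clu in endothelial cells was 2.16 with own markers and 1.74 without the smaller cluster, a setting chosen after seeing the data.

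The number of members past 1.5-fold from young to old changed by over 1.5 times as follows. Thinned, it was 1 in mural cells and rods and 0 in cones and bipolar cells. Without cells holding other markers it was 1 in Müller glia and endothelial cells and 0 in rods and, by a smaller step, 2 in mural cells. With own markers it was 2 in Müller glia and cones and 1 in endothelial, mural and bipolar cells. As a mean over cells it was 1 in Müller glia, rods and bipolar cells, with stricter limits (1000 genes, 10% mitochondrial) 1 in rods and bipolar cells, and without doublet removal 1 in Müller glia. With no minimum beyond 1 UMI in each library it was 4 in rods and 2 in cones, and members with no UMI in either library were left out. At 2-fold it was 0 in mural cells and 1 in rods and bipolar cells. The 8 mural sterol synthesis genes became 4 when thinned and 5 without cells holding other markers, settings chosen for this count after seeing the data. No paired analysis was possible because each age has 1 library. Depth limits the low members, such as Lpl and Abca1.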

Other observations

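The 53 old cells of the retinal pigment epithelium, the layer that feeds and recycles photoreceptor outer segments, held several members at once. Besides Clu and Abca1, Apoe was at 9541 CPM (9167 to 9927), where Müller glia of the same library held 15046 CPM. Pltp was at 1465 CPM and Lrp1 at 327 CPM, while Abca8a and Apod had 1 UMI each. Scarb1 was at 39.0 CPM and Lpl at 11.7 CPM, from 10 and 3 UMIs. Abca8a, high in Müller glia beside Apoe and Clu, was thus not detectable beyond 1 UMI in another cell type with high Apoe and Clu. In the 37 adult lens cells, Clu was joined by Apoe at 795 CPM, Lrp1 at 106 CPM and Lpl at 53.2 CPM from 43 UMIs, and no UMI of Apod or Abca8a was counted.

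A mixed cluster of T cells and microglia or macrophages, of 9, 28 and 14 cells, held Apoe at 1846, 451 and 1503 CPM. The droplets with both endothelial and mural markers held Clu at 26.9, 49.3 and 64.7 CPM, in the same order of ages as the endothelial class, and Pltp at 2261, 2272 and 2736 CPM.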
